A study of Mus musculus with 4 samples.

Results

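The immediate-early response genes Fos, Fosb, Jun, Junb, Jund, Egr1, Atf3, Ier2, Nr4a1 and Dusp1 were taken by symbol from the single-cell RNA sequencing of 4T1 tumours, and they are 10 of the 55450 genes of the deposited matrix. Each symbol matched a single row, and all 10 genes were detected in every cell class and library with at least 50 cells. Their UMIs (unique molecular identifiers, which count captured RNA molecules) were read in the barcodes with at least 300 genes and at most 15% mitochondrial UMIs, class by class and library by library.

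4T1 is a mouse mammary carcinoma line, and 1000000 of its cells were implanted in 25 µl into the flank of female BALB/c mice aged 6 to 8 weeks. The mice were injected intravenously on day 7, and the tumours were collected on day 13. From day 8 to day 10, by the protocol taken for the samples, all groups were lit for 5 min a day. The light was near-infrared, of 980 nm at 1.0 W cm-2. The single-cell section of the paper gives no light dose, and its antitumour experiments name a lower power. Whether every sequenced group was lit at this power is therefore not certain. By the labels, 2 samples came from mice given PBS and 1 from mice given TIOs (macrophages killed in liquid nitrogen that carry light-activated particles), while the other sample has PBS as its title but TIOs in its protocol and was left unassigned. By the methods, tumours were minced in a gentleMACS Dissociator, passed through a strainer and sorted for CD45 before capture, and how many mice were pooled in a sample was not given in the sources used here. The matrix pools 4 libraries, told apart only by the suffix of their barcodes, and neither the labels nor the methods say which suffix is which sample. The libraries are therefore of unknown treatment, named 1 to 4 after their suffix. No treatment was compared, no p-value was computed, and each library's value is given by itself.

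Immediate-early genes are transcribed within minutes of a stimulus from factors that already sit in the cell, without new protein synthesis, and their RNAs are short-lived. Fos and Jun proteins pair into AP-1 dimers that bind DNA, Egr1 and Nr4a1 encode transcription factors of their own, and Dusp1 encodes a phosphatase that switches off the MAP kinases which induce much of the group. In tumours the genes respond to growth factors, cytokines, antigen and stress. They are also known to respond to the mincing, warming and sorting that turn a tissue into single cells, so a level in dissociated tissue can have been set in the animal or after it.

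The sequence just before the start site of the genes is shown because it can carry elements through which kinases reach such genes. Promoters came from RefSeq on GRCm38.p6, where 8 of the 10 genes had an entry, all but Egr1 and Ier2. For 5 of these genes the 250 bases before the start site are printed 5′ to 3′ on the strand of the gene. Capitals mark TGACG on either strand (CGTCA when read on the other), the full cyclic AMP response element TGACGTCA, the related TGACATCA, TATAAA, and on either strand the EGR motif GCGNGGGCG.
Fos (plus strand), chr12:85473640-85473889: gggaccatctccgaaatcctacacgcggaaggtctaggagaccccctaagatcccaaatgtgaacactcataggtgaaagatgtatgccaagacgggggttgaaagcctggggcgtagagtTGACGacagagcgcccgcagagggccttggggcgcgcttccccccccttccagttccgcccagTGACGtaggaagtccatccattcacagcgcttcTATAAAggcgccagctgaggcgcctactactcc
Jun (minus strand), chr4:95052223-95052472: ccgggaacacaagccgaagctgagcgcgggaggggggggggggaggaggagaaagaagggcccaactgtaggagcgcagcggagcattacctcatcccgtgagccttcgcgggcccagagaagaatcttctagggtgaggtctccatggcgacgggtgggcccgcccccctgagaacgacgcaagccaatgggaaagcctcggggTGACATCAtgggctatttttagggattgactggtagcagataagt
Atf3 (minus strand), chr1:191183334-191183583: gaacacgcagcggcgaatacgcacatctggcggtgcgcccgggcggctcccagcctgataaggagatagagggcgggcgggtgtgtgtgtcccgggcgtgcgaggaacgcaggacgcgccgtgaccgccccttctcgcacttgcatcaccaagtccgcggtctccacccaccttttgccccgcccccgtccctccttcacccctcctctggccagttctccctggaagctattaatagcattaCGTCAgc
Nr4a1 (plus strand), chr15:101266596-101266845: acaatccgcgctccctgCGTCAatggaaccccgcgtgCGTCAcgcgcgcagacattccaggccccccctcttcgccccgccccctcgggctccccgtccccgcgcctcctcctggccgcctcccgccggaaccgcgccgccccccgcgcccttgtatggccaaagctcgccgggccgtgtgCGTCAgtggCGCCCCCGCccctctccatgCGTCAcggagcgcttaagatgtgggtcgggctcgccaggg
Dusp1 (minus strand), chr17:26508473-26508722: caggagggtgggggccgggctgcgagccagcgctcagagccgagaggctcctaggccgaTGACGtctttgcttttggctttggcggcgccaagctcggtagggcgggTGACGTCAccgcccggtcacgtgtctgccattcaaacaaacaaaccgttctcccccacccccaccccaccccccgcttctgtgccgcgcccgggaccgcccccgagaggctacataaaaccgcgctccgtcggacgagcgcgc

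TGACG stood in 6 of the 8 promoters (Atf3, Dusp1, Fos, Fosb, Junb and Nr4a1), and in 17.8% of all 32851 promoters of the same length. Dusp1 held a separate TGACG 191 bases before the start. Its other TGACG matches lie inside TGACGTCA, 143 bases before the start, and are the same site as that element. The full element was found in no other of the 8 and in 1.55% of all promoters. Nr4a1 held 4 copies of TGACG, at 233, 213, 69 and 40 bases before the start. The EGR motif, which Egr1 itself can bind, lay 60 bases before the start of Nr4a1 and 50 before that of Fosb, against 4.70% of all promoters. The TGACATCA of Jun began 45 bases before its start site and was found in 2.93% of promoters, and the TATAAA of Fos began 33 bases before its start site and was found in 12.4%. AP-1 sites (TGANTCA, 6.75% of promoters) and CArG boxes (1.47%) did not occur in these windows. The windows were set by the RefSeq start sites, which need not be those of GENCODE. That of Jund, chr8:70697489-70697738, ended before the GENCODE start of Jund at 70698949, and those of Atf3, Nr4a1 and Dusp1 lay inside the GENCODE bounds of the gene. A match is a run of letters and no binding was measured.

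In GENCODE, Fos lies at chr12:85473890-85477273, Fosb at chr7:19302696-19310051, Jun at chr4:95049034-95052222, Junb at chr8:84974484-84978718 and Jund at chr8:70698949-70700616. Atf3 lies at chr1:191170296-191218039, Ier2 at chr8:84661331-84662852, Nr4a1 at chr15:101254269-101274795 and Dusp1 at chr17:26505590-26562128. All are protein-coding. Genes annotated on the opposite strand overlap Jun (Junos), Junb (Prdx2), Jund (Gm11175), Atf3 (Gm24748) and Dusp1 (Ergic1 and Gm8225), and AC122252.4 and AC122252.1 overlap Dusp1 on its own strand. Whether counting used the strand was not given in the sources used here.

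Of 33064 barcodes, 32133 passed the filters, and 23376 of these (72.7%) were placed in 1 of 15 cell classes, each by at least 3 of 8 marker genes and 2 more than for any other class. The other 8757 stayed without a class, and 25.7% of the placed cells were within 1 marker of losing their class. Among the leading 10 genes of each sum by fold over the other classes, markers of the class itself outnumbered those of any other class in all 27 sums. The cells were placed by these same markers, so this count could hardly come out otherwise and does not test the class names. In monocyte-like cells of library 3 and endothelial cell-like cells of library 1 it was 1 marker against 0. The 27 sums of a class in a library with at least 50 cells carry the results, and 4 classes reached that size in every library: neutrophil-like, macrophage-like, T cell-like and fibroblast-like. Cells of non-leucocyte classes made up 29.4% of the placed cells although the methods describe a CD45 sort. With libraries pooled, a UMI of Ptprc, which encodes CD45, was found in 6.48% to 22.7% of the cells of those classes. In fibroblast-like cells the share was 40.7% in library 4, against 13.5%, 18.8% and 16.9% in libraries 1 to 3. Of the 710 fibroblast-like cells of library 4, 369 were within 1 marker of losing their class. Library 1 stood apart, with a median of 11698 UMIs per cell against 2642 to 7182 in the others, and it held 3059 of the 3181 tumour or epithelial cell-like cells. Within classes the order of depth differed. Library 1 had the lowest median in neutrophil-like cells (1616 against 1736 to 1944 UMIs) and fibroblast-like cells (13273 against 19843.5 to 32962.5). It had the highest in macrophage-like cells (9789 against 4407.5 to 8230) and lay between the others in T cell-like cells (4147.5 against 3366 to 5936). Barcode sequences found in more than 1 library numbered 95.

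Levels are given in CPM, a gene's count of UMIs scaled to 1000000 UMIs over the summed cells. Counting error alone gave the 270 levels a median half-width of 4.15% (exact Poisson 95% interval, at most 30.4%), and no interval covers the difference between mice. Over all kept barcodes, with or without a class, the 10 genes together took 1.53% of UMIs in library 1 and 0.881%, 0.674% and 0.732% in libraries 2, 3 and 4.

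Fos, whose protein is the partner of Jun in AP-1, was highest in library 1 in all 4 of the classes that every library held. In macrophage-like cells it stood at 4280.3 CPM in library 1 (95% interval 4245 to 4316), 1417 in library 2, 681 in library 3 and 786 in library 4. In T cell-like cells the values were 1791, 290.2, 147 and 658 CPM in the same order. Library 1 was thus at least 2.72 times the next library in both classes. In fibroblast-like cells Fos measured 2420 CPM in library 1 and 1325, 793 and 851 in libraries 2 to 4. In neutrophil-like cells it measured 1774 CPM in library 1, 666 in library 2, 638 in library 3 and 1694 in library 4. There library 4 came within 1.05-fold of library 1, and of the cells that could be thinned to 1000 UMIs (607 of 734 in library 1 and 1865 of 1951 in library 4) 62.9% in library 1 and 67.1% in library 4 held a Fos UMI, so no order is read between these libraries. Before thinning the shares were 76.7% and 79.4%.

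Jun, the DNA-binding partner that can also pair with itself, followed Fos closely. Its levels were 3316, 1298, 854 and 1108 CPM in macrophage-like cells of libraries 1 to 4 and 1922, 195, 227 and 544 in T cell-like cells. In fibroblast-like cells they were 3177, 1234, 1053 and 1053 CPM, and in neutrophil-like cells 2252, 596, 1093 and 1175. Library 1 was 1.92 to 3.53 times the next library in these classes. Over the 27 sums, which share libraries and depth, the log2 levels of Fos and Jun had a Pearson correlation of 0.93, the closest pair of the 10 genes, given as a description.

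Fosb, a close relative of Fos, had its highest level in library 1 in the same 4 classes, at 980 CPM in macrophage-like, 577 in T cell-like, 826 in fibroblast-like and 299 in neutrophil-like cells. The other libraries spanned 186 to 532, 106 to 326, 332 to 803 and 173 to 258 CPM in these classes. In fibroblast-like cells libraries 1 and 2 differed by 1.03-fold, within their counting intervals, so the order there is not settled. The intervals of libraries 1 and 4 in neutrophil-like cells also overlapped. Atf3, a stress-induced member of the ATF and CREB family, was in library 1 between 1.31 and 3.25 times the next library. It reached 2949 CPM in macrophage-like and 2031 in neutrophil-like cells of library 1, against 725 to 1078 and 547 to 956 CPM in the other libraries.

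**Figure D1:**
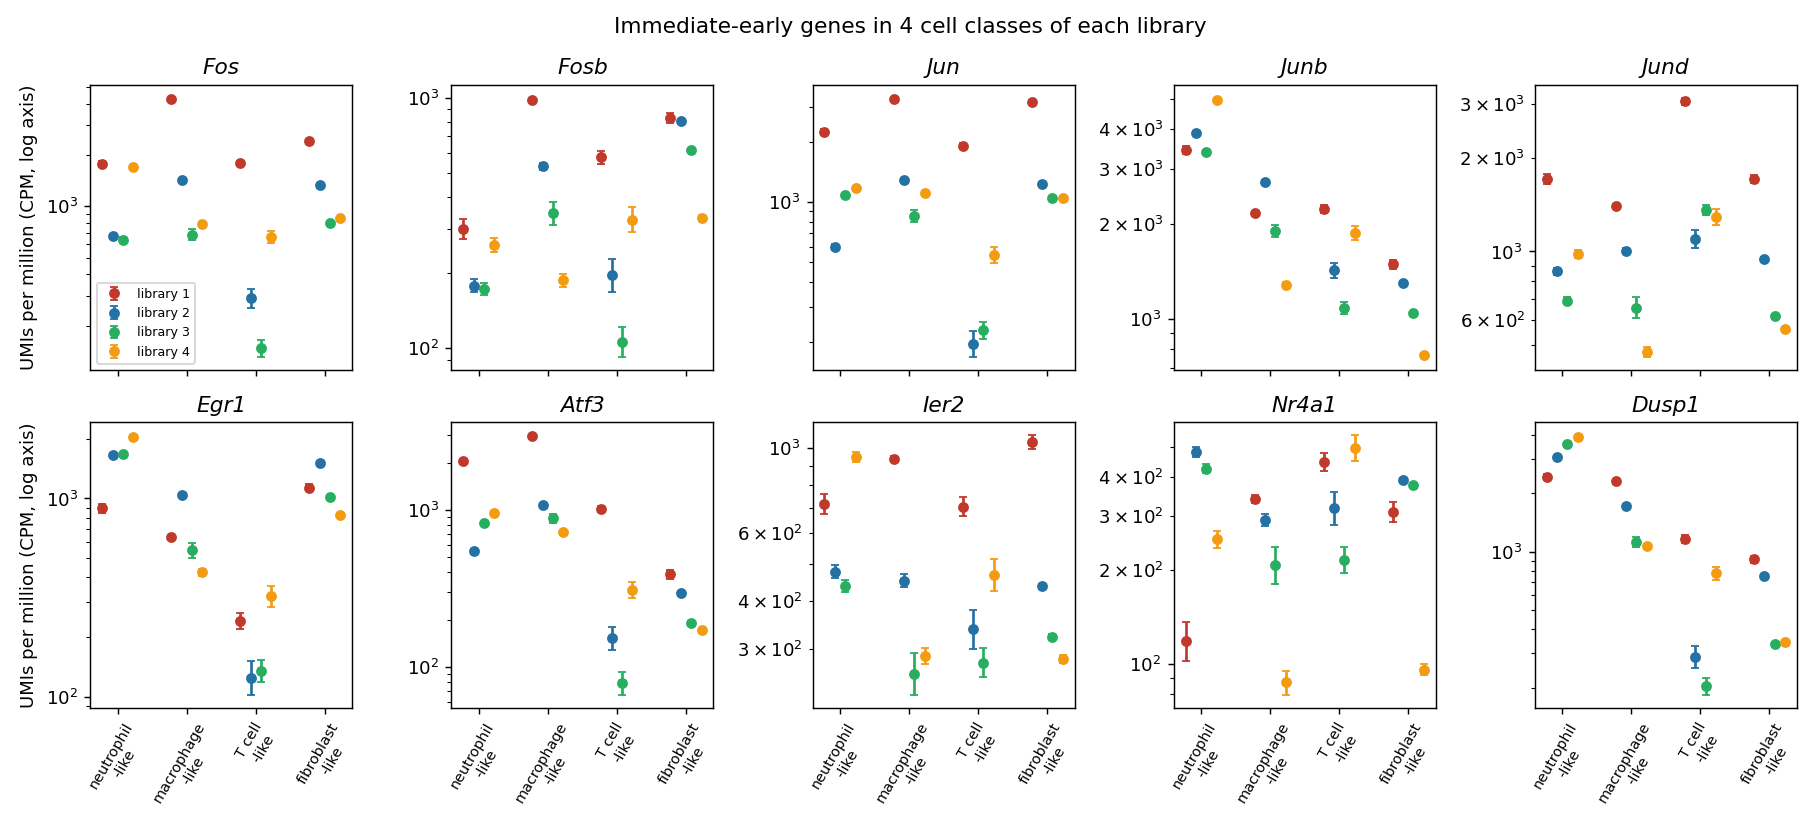
Level of each of the 10 genes (CPM of the summed cells, log axis, a scale for each gene) in the 4 cell classes held by every library, with a point for each library and bars for the exact Poisson 95% interval, which covers counting error only. Fos, Fosb, Jun, Jund and Atf3 have library 1 on top in all 4 classes, Egr1 in none, and Nr4a1 of neutrophil-like cells has library 1 at the bottom, at 119 CPM. For Fos in neutrophil-like cells and Fosb in fibroblast-like and neutrophil-like cells, the intervals of library 1 and the next library overlap.

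The proteins of Junb and Jund also pair with Fos. Junb was highest in neutrophil-like cells in every library, at 3441, 3891, 3397 and 4966 CPM in libraries 1 to 4, and lowest of the 4 classes in fibroblast-like cells, at 1491, 1303, 1041 and 767 CPM. Jund was highest in T cell-like cells of the 4 classes, at 3056, 1097, 1361 and 1293 CPM. In library 2, however, its highest and lowest class of the 4 differed by only 1.27-fold, and the intervals of T cell-like and macrophage-like cells overlapped. Tumour or epithelial cell-like cells, which only libraries 1 and 2 held in number, had Jund at 3267 and 1165 CPM, above the T cell-like cells in library 1 and with overlapping intervals in library 2. In library 4, NK cell-like and plasmacytoid dendritic cell-like cells, at 1639 and 1564 CPM of Jund, were also above the T cell-like cells. The lowest of the 4 classes for Jund changed between libraries. Library 1 led for Jund in all 4 classes, by 1.40 to 2.25 times the next library, but for Junb in T cell-like and fibroblast-like cells only. Junb in macrophage-like cells was highest in library 2, at 2718 CPM against 2162 in library 1.

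Dusp1, which encodes the MAP kinase phosphatase, was the third gene with the same highest class of the 4 in every library. In neutrophil-like cells it measured 2416 CPM in library 1, 3055 in library 2, 3567 in library 3 and 3901 in library 4, so that library 1 was the lowest. In macrophage-like cells the order was the other way, with 2310.4, 1707, 1120 and 1070 CPM. T cell-like cells had 1162, 288, 204 and 773 CPM, and at 1000 UMIs a Dusp1 UMI was found in 64.0%, 24.7%, 18.5% and 48.4% of them. The corresponding shares of neutrophil-like cells were 79.6%, 83.0%, 85.9% and 90.0%. Junb, Jund and Dusp1 were 3 of 10 genes with the same highest class in all 4 libraries, and without library 1 the count was 6, with Fosb in fibroblast-like cells and Egr1 and Ier2 in neutrophil-like cells. Over all genes tested, the highest class was the same in 46.4% with all libraries and in 59.9% without library 1.

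Egr1, a zinc finger transcription factor, was the only one of the 10 genes for which library 1 led in none of the 4 classes. That rests on libraries 2 and 4, since library 1 led in 2 classes without library 2 and in 1 without library 4. With the mean of single cells, Nr4a1 also had library 1 first in 0 classes. In neutrophil-like cells Egr1 measured 895 CPM in library 1, 1658 in library 2, 1671 in library 3 and 2038 in library 4. In fibroblast-like cells it measured 1135, 1509, 1012 and 824 CPM and in macrophage-like cells 642, 1040.0, 548 and 425. Egr1 of T cell-like cells was the lowest of the 4 classes in every library, at 242, 125, 135 and 320.4 CPM. Monocyte-like cells, which libraries 2 to 4 held in number, also had low Egr1, at 249.8, 228 and 196 CPM, and their Fos stood at 1203, 1117 and 1575 CPM. Fos and Egr1, both targets of the same kinases, thus had different orders of cell classes within these libraries.

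Nr4a1, an orphan nuclear receptor that antigen receptor signals induce in lymphocytes, had the lowest ratio of library 1 to the median of the others, 0.28 in neutrophil-like cells. These cells had 119 CPM in library 1 (95% interval 102.4 to 137, from 188 UMIs), 482 in library 2, 426 in library 3 and 252 in library 4. A Nr4a1 UMI was found at 1000 UMIs in 8.73%, 31.6%, 28.5% and 19.9% of these cells. Nr4a1 of T cell-like cells measured 447, 317, 216 and 496 CPM, and the intervals of libraries 1 and 4 overlapped. In macrophage-like and fibroblast-like cells library 4 was the lowest, at 87.2 and 95.8 CPM, against 208 to 340.3 and 309 to 391 in the others. Ier2, an early gene whose protein is nuclear, had 715.6, 477, 438 and 948 CPM in neutrophil-like and 935, 452, 259 and 288 in macrophage-like cells, and library 1 led in 3 of the 4 classes.

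Across the 4 classes, library 1 was the highest for 5 of the 10 genes in every class, and it was the highest in 29 of 40 pairs of a gene and a class. These counts take the highest level whatever its margin. They include Fos in neutrophil-like cells and Fosb in fibroblast-like and neutrophil-like cells, where the intervals of library 1 and the next library overlapped. Of the 5 genes, only Jun, Jund and Atf3 kept this under every alternative that kept library 1. The background is 3.13% of 5654 genes with enough counts that were highest in library 1 in each of the 4 classes. By class, library 1 was highest for 5 of the 10 genes in neutrophil-like cells (33.6% of all genes tested), 8 in macrophage-like cells (26.7%), 8 in T cell-like cells (17.9%) and 8 in fibroblast-like cells (25.4%). The treatment, the depth, the cell make-up and the handling of library 1 cannot be told apart, since it is 1 library.

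A spread of at least 2-fold between the highest and the lowest library was found for 48 of 70 pairs of a gene and a class, against 30.2% of the pairs over all genes tested. It held for all 10 genes in macrophage-like cells (background 42.4%) and in T cell-like cells (41.3%), for 8 in fibroblast-like cells (34.2%) and for 7 in neutrophil-like cells (48.2%). In monocyte-like cells, which had no library 1 sum, it held for Jun alone, at 764, 1128 and 1699 CPM in libraries 2 to 4, and the background was 17.8%. The median spread of the 10 genes was 3.75-fold in macrophage-like cells and 4.11-fold in T cell-like cells, where the median of all genes was 1.84-fold in both. In neutrophil-like cells it was 2.37-fold against 1.96-fold. Without library 1, 19 of 50 pairs spread by at least 2-fold, against 17.8% over all genes tested.

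Between cell classes, the share of the 10 genes with a wide spread lay below that of all genes in library 1, near it in libraries 2 and 4 and above it in library 3. A difference of at least 4-fold between the highest and lowest class was found in library 1 for 2 of 10 genes (56.2% of all genes tested), Atf3 and Egr1. In libraries 2, 3 and 4 it was found for 7, 9 and 7 genes, where the backgrounds were 75.5%, 66.1% and 71.2%. The libraries hold different classes. In library 3 the lowest class was mature dendritic cell-like for every gene but Atf3 and Dusp1, a class that no other library held in number. Over the 4 classes that every library held, Jund, Ier2 and Nr4a1 spread in library 3 by only 2.19, 1.69 and 2.04-fold. Ier2 spread by 1.65-fold over the 6 classes of library 1 and Dusp1 by 17.5-fold over the 6 classes of library 3. Neighbouring classes in these orders often had overlapping intervals, 5 of the 7 neighbours for Ier2 in library 2 and none for Dusp1 in library 3.

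**Figure D2:**
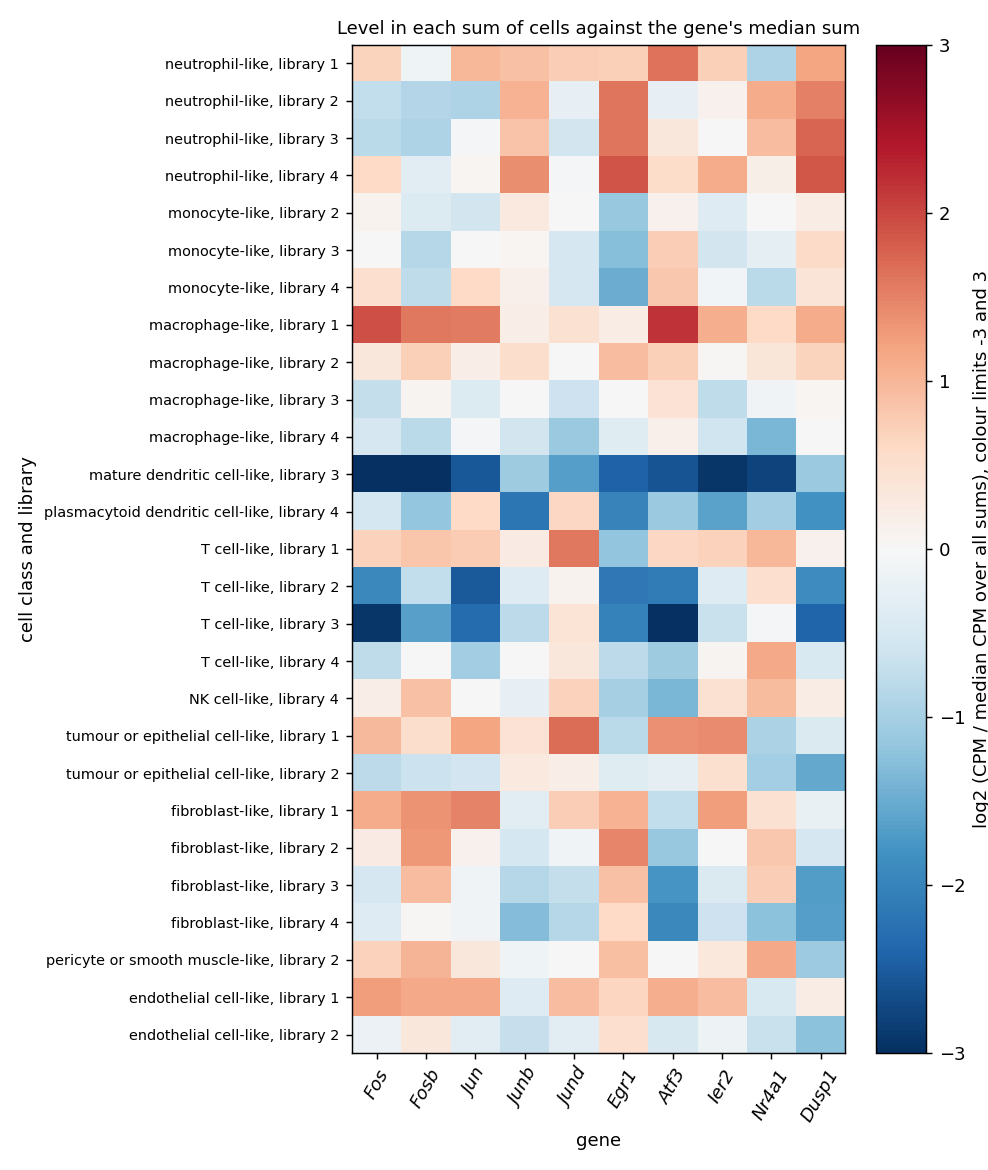
Log2 of the level of each gene (columns) in each of the 27 sums of a cell class and a library (rows) over the gene's median sum, so that red is above and blue below the median sum of that gene. Mature dendritic cell-like cells of library 3 are blue for all 10 genes, neutrophil-like cells are red for Junb and Dusp1 in all 4 libraries, and T cell-like cells of libraries 2 and 3 are dark blue for Fos, Jun, Atf3 and Dusp1.

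The lowest sum of the 10 genes was that of mature dendritic cell-like cells, cells that carry Ccr7 and Fscn1 and came in number from library 3 alone. The genes together reached 2366 CPM there, against 3838 in T cell-like, 6363 in fibroblast-like, 7458 in macrophage-like, 8469 in monocyte-like and 12915 in neutrophil-like cells of the same library. Fos stood at 126 CPM, Egr1 at 101.6, Ier2 at 58.3, Fosb at 35.5 and Nr4a1 at 32.7, Junb at 893 and Dusp1 at 492. Atf3 and Dusp1 were lower still in T cell-like cells of library 3, at 78.9 and 204 CPM. At 1000 UMIs, 5.06% of the mature dendritic cell-like cells held a Fos UMI and 4.43% a Fosb UMI. No class is known to lack these genes, so the share that free RNA alone gives was not measured, and these low shares are given beside the others for that reason.

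In library 4, plasmacytoid dendritic cell-like cells (65 cells) had a mixed pattern. Their Jun and Jund, at 1715 and 1564 CPM, were among the highest of that library, while Junb was the lowest of its 7 classes at 417 CPM, where neutrophil-like cells had 4966. NK cell-like cells of the same library had 1278 CPM of Fos, 601 of Fosb and 1249 of Dusp1, each above the T cell-like cells at 658, 326 and 773. Atf3 was lower in NK cell-like than in T cell-like cells, at 252 against 310.4 CPM, but the intervals overlapped.

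Tumour or epithelial cell-like cells could be compared between libraries 1 and 2 only, with 3059 and 121 cells. Fos measured 2195 and 645 CPM, Jun 2546 and 753, Atf3 1683 and 539 and Jund 3267 and 1165. Junb and Nr4a1 differed little, with 2519 and 2282 and with 117 and 110.3 CPM, and Egr1 was lower in library 1, at 312 against 426. Endothelial cell-like cells (52 and 151 cells) showed 2671 and 982 CPM of Fos, 2474 and 890 of Jun and 860 and 774 of Egr1. Pericyte or smooth muscle-like cells of library 2 (61 cells) had the highest Fos and Jun of that library, at 1789 and 1424 CPM.

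The T cell-like cells of library 1 were of another make-up than those of the other libraries. In library 1, 230 of 352 held a Cd8a or Cd8b1 UMI and no Cd4, where the other libraries had 4, 11 and 7 such cells. Among cells with Cd4 and neither Cd8 gene (40, 54, 212 and 104 cells), Fos measured 1825, 310.0, 119 and 585 CPM and Jun 1529, 178, 195 and 463. For Fos and Jun, library 1 was thus above the others among Cd4 cells too, although its 40 cells are below the size used for sums elsewhere. The Cd4 cells of library 1 were also shallower, with a median of 3283.5 UMIs against 6731.5, 4341 and 5613.5 in libraries 2 to 4. The part of depth in these levels was not tested. The 10 genes summed to 12392 CPM in Cd4 cells and 12745 in Cd8 cells of library 1.

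Neutrophil-like cells were also split by Retnlg, a gene of mature neutrophils. A UMI of it was found in 389 of 734 cells of library 1. In libraries 2 to 4 the counts were 755 of 2993, 1187 of 3177 and 810 of 1951. In libraries 1 and 3, cells without a Retnlg UMI had higher levels of all 10 genes. In library 1 they had 1307 against 664 CPM of Egr1 and 3436 against 1845 of Dusp1. Libraries 2 and 4 differed, with Fos at 736 and 1752 CPM with Retnlg against 638 and 1641 without. Fosb was also higher with Retnlg in libraries 2 and 4, and Ier2 in library 4. Nr4a1 of library 1 stayed low in both, at 113 CPM with and 128 without Retnlg, where library 2 had 366 and 529. In macrophage-like cells, those with and without a UMI of Mrc1, the mannose receptor, had 4301 and 4238 CPM of Fos in library 1. The pairs were 1396 and 2084 in library 2, 698 and 521 in library 3 and 774 and 977 in library 4. In library 3 only 24 cells lacked Mrc1. A Mrc1 UMI was found in 749 of 1328 macrophage-like cells of library 1. In libraries 2 to 4 it was found in 868 of 926, 160 of 184 and 580 of 640. Lrrc15, a fibroblast marker, was found in 130 of 156 fibroblast-like cells of library 1. The other libraries had it in 553 of 1470, 161 of 1000 and 177 of 710. Library 1 thus differed in these splits as well as in T cell-like cells. The part of this in the levels was not tested. Cells without a UMI are shallower, so these splits are not free of depth.

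Several of the 10 genes were often found in the same cell, but abundant genes are found together without any link between them. The shares that follow have no expectation for unlinked genes beside them, so no co-expression is read from them. At 1000 UMIs per cell, 94.9% of macrophage-like cells of library 1 held a UMI of at least 3 of the 10 genes, and 91.0%, 72.8% and 76.3% in libraries 2 to 4. For T cell-like cells the shares were 93.4%, 59.7%, 38.7% and 82.2%, and for neutrophil-like cells 97.4%, 90.9%, 92.8% and 97.9%. Cells with none of the 10 genes made up 0.573% of macrophage-like cells in library 1 and 3.18% in library 4.

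**Figure D3:**
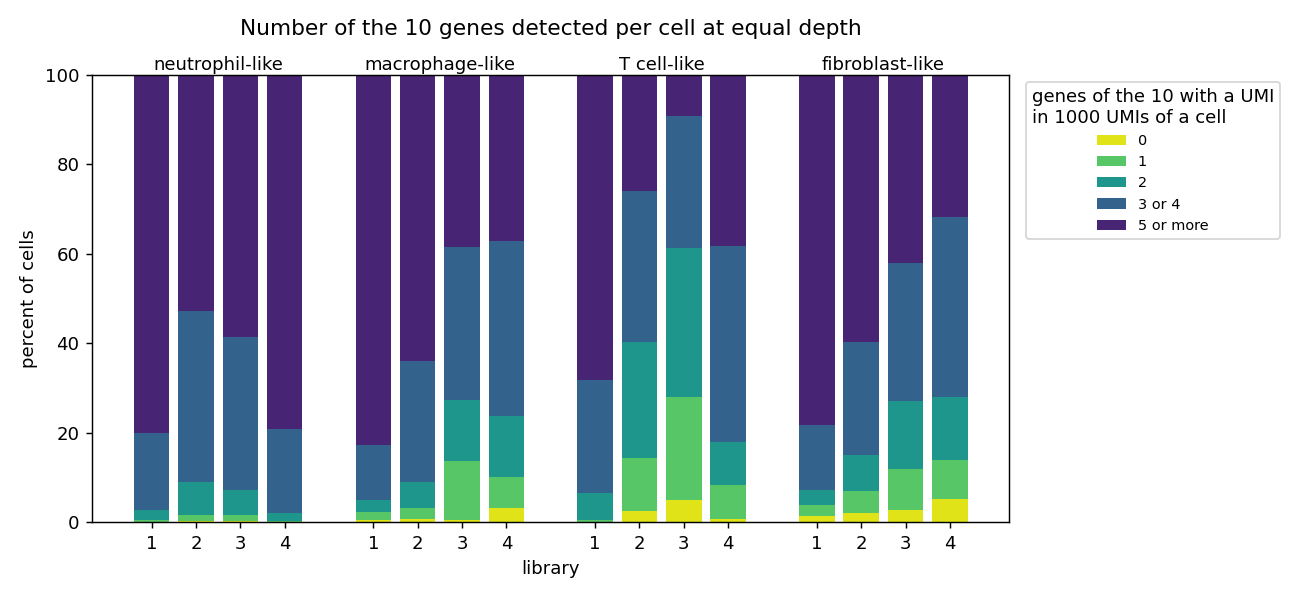
Share of cells (percent, stacked to 100) by how many of the 10 genes had a UMI among 1000 UMIs drawn from each cell, for the 4 classes (groups of bars) in libraries 1 to 4. Cells with 5 or more of the genes make up 82.7% of macrophage-like cells in library 1 and 9.25% of T cell-like cells in library 3. No expectation for unlinked genes is shown, so the shares do not measure co-expression.

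Single genes were uneven between cells. Fos UMIs of the 10% of cells richest in Fos made up 29.3% of all Fos UMIs in macrophage-like cells of library 1 and 84.0% in T cell-like cells of library 3, where 20.96% of cells (exact binomial 95% interval 17.1% to 25.2%) held any. The variance of Fos over the mean at 1000 UMIs was 4.58 in T cell-like cells of library 1 and 1.42 in macrophage-like cells of library 4, where independent counts of equal cells would give 1. Pairs of genes were mostly found together slightly more often than their separate shares would give. The ratio of observed to expected cells cannot exceed 1 divided by the larger share. Junb was found in 89.0% to 96.1% of thinned neutrophil-like cells, so its pairs could not reach 1.2 there. Over 646 values of a pair in a class and library, the ratio of observed to expected cells was at least 1.2 in 103, and the median for a pair of genes ran from 1.02 for Jund with Atf3 to 1.21 for Fosb with Nr4a1. The ratio was above 1 in 599 of the 646 values, and 19 of the 45 pairs of genes were above 1 in every class and library where they could be counted, Fosb with Nr4a1 and Egr1 with Nr4a1 (median 1.19) among them. The ratios in thinned counts are bounded by the shares, so no order of pairs and no strength is read from them.

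The genes outside the list whose level over the 27 sums was most like the mean of the 10 were named by a fixed rule from 7260 genes, with Pearson correlations of log2(CPM + 10). They included Rhob (0.82), Dusp6 (0.76), Plk3 (0.70), Klf6 (0.68), Dnajb1 (0.67), Klf2 (0.66), Socs3 (0.66), Ier3 (0.64) and Sgk1 (0.59). Rhob encodes a small GTPase, Dusp6 a phosphatase of MAP kinases, Klf2 and Klf6 zinc finger factors, and Dnajb1 a co-chaperone. The sums share libraries and depth, so these values describe these libraries.

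A list of 26 other early response genes was read in the same classes. In macrophage-like cells 12 of 26 were highest in library 1, in T cell-like cells 11 of 24 with enough counts, in fibroblast-like cells 9 of 26 and in neutrophil-like cells 6 of 26. The shares over all genes were 26.7%, 17.9%, 25.4% and 33.6%, so that the list lay below the background in neutrophil-like cells. The ratio of library 1 to the median of the other libraries had a median over this list of 0.87, 1.15, 1.08 and 0.70 in the same order of classes. Klf2, a factor of quiescent T cells and endothelium, was among them in all 4 classes, with 2356, 402, 299 and 155 CPM in macrophage-like cells of libraries 1 to 4. Rhob was highest in library 1 as well, with 797, 428, 363 and 284 CPM. Genes of the Egr and Nr4a families went the other way in neutrophil-like cells. Egr3 measured 24.0 CPM in library 1 and 226, 199 and 186 in libraries 2 to 4, and Nr4a3 24.0 CPM in library 1 and 298, 182 and 87.3 in the others. Nfkbiz, which encodes a nuclear partner of NF-κB, measured 424, 1986, 1671 and 1260 CPM in the same cells. These early genes thus had library 1 at the bottom where Jun and Atf3 had it at the top.

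In the list of 12 partners of AP-1 and relatives of Dusp1, 4 of 12 were highest in library 1 in macrophage-like cells, 4 of 10 in T cell-like, 4 of 12 in fibroblast-like and 1 of 10 in neutrophil-like cells, beside the same backgrounds of 26.7%, 17.9%, 25.4% and 33.6%. The shares in macrophage-like and fibroblast-like cells were near the background. The ratio of library 1 to the median of the other libraries had a median over this list of 0.76 in macrophage-like cells. It was 1.16 in T cell-like, 1.19 in fibroblast-like and 0.99 in neutrophil-like cells. Over the 10 genes the medians were 2.49, 2.66, 2.36 and 1.59 in the same order. In fibroblast-like cells the ratios on the list ran from 0 for Batf to 9.87 for Dusp4, with Dusp6 at 5.58. The highest of the 10 genes there was 3.21. Maf, a relative of AP-1 factors found in macrophages, was lower in library 1, at 97.3 CPM against 886, 687 and 558. Dusp6 in macrophage-like cells had 103, 67.2, 41.7 and 46.1 CPM.

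Heat shock genes, which encode chaperones, were mostly highest in library 1. Of the 11 on the list, 11 were highest in library 1 in macrophage-like cells, 10 in neutrophil-like cells, 8 of 10 with enough counts in T cell-like cells and 7 in fibroblast-like cells, where the backgrounds were 26.7%, 33.6%, 17.9% and 25.4%. In fibroblast-like cells Hsp90aa1, Hsp90ab1, Hspd1 and Hspe1 were highest in library 3, and in T cell-like cells Hspd1 and Hspe1 in library 2. Hspb1 of neutrophil-like cells was lowest in library 1, at 4.42 CPM against 14.7, 12.9 and 20.8. Hspa1a, the inducible Hsp70, had the largest ratio of library 1 to the median of the others on this list in each class. It measured 1787.5 CPM in macrophage-like cells of library 1 and 411, 126 and 86.3 in libraries 2 to 4. In T cell-like cells it measured 823, 46.2, 29.8 and 41.2 CPM. In neutrophil-like cells, where Nr4a1 and Egr1 were lowest in library 1, Hspa1a still had 246 CPM there against 31.98, 26.97 and 34.1. The part of tissue dissociation in the levels of the 10 genes was not tested, and the libraries cannot be told apart from the handling of their tumours.

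**Figure D4:**
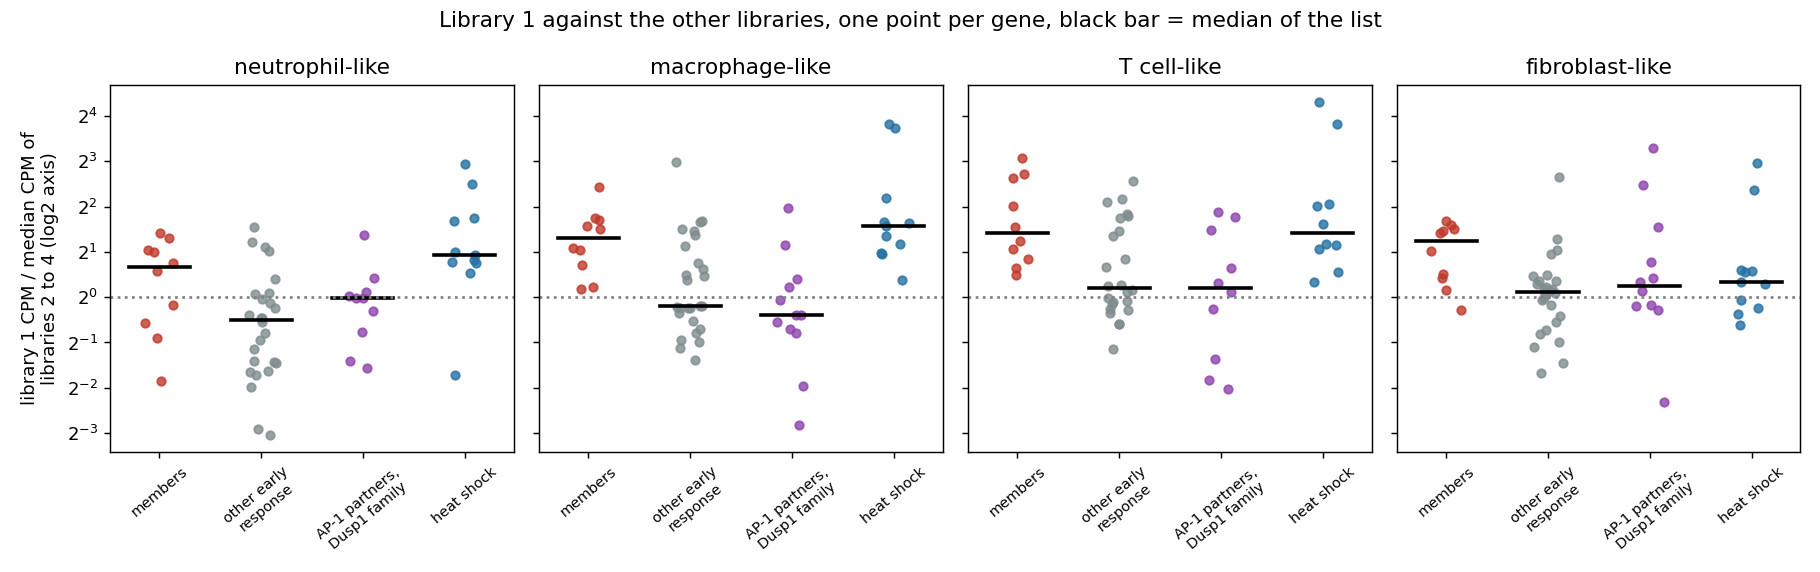
Ratio of the CPM in library 1 to the median CPM of libraries 2 to 4 (log2 axis) for each gene of 4 lists in the 4 classes, with a black bar at the median of the list and a dotted line at equality. The median of the 10 genes is 1.59 in neutrophil-like, 2.49 in macrophage-like, 2.66 in T cell-like and 2.36 in fibroblast-like cells, and that of heat shock genes 1.90, 3.00, 2.65 and 1.26. Batf of fibroblast-like cells had no UMI in library 1 and is counted in the median but not drawn.

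Depth moved with the levels inside a class too, whereas the direction for mitochondrial share differed between sums. In 26 of the 27 sums, the 10 genes together were higher in the cells at or below the median UMI count of the class than in those above it, and the ratio of deep to shallow cells ran from 0.437 to 1.00. Endothelial cell-like cells of library 2 had 12591 CPM in the shallow cells and 5506 in the deep ones. In macrophage-like cells of library 1 the values were 19299 and 19330 CPM, so that deep and shallow cells of this sum were within 1.00-fold of each other. Cells in the highest tertile of mitochondrial share had more of the 10 genes than those in the lowest tertile in 18 of 27 sums, with ratios from 0.781 to 2.58. Mitochondrial UMIs made up 1.77% of library 1 and 0.961% to 1.5% of the others, and in macrophage-like cells 1.21% in library 1 and 1.03% to 1.71% in the others. The part of these in the differences between libraries was not tested.

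**Figure D5:**
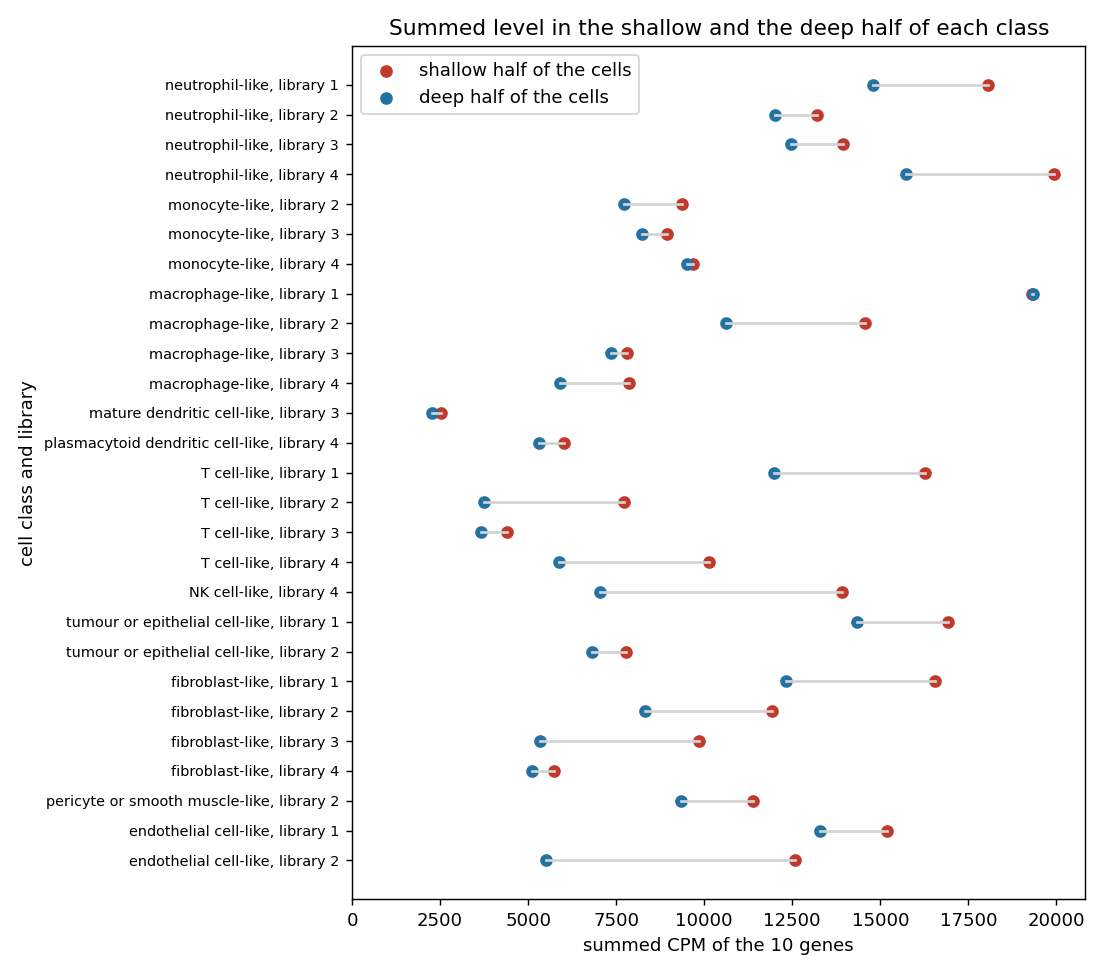
Summed CPM of the 10 genes in the cells at or below the median UMI count (red) and above it (blue) of each class and library. Red lies to the right of blue in 26 of 27 rows, and macrophage-like cells of library 1 are the exception, at 19299 and 19330 CPM.

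Summed over the 10 genes, macrophage-like cells had 19323, 11537, 7458 and 6428 CPM in libraries 1 to 4, T cell-like cells 13144, 4423, 3838 and 7063, and fibroblast-like cells 13413, 9000.4, 6363 and 5279. Library 1 was the highest in these 3 classes. Neutrophil-like cells had 15656, 12413, 12915 and 17169 CPM, with library 4 above library 1, and monocyte-like cells had 8310.4, 8469 and 9563 CPM in libraries 2 to 4. Neutrophil-like cells were the highest of the 4 classes in libraries 2, 3 and 4, and macrophage-like cells in library 1.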

How the data were processed

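Single cells of 4T1 tumours were captured on the 10x Genomics platform. The authors deposited 1 matrix of whole-number UMI counts, not scaled per cell, for 55450 genes and 33064 barcodes (355765099 UMIs, 69255999 to 108646352 per library), made with Cell Ranger. Its version was given as 6.1.2 in the matrix header, as 3.0.2 in the extraction protocol and as 2.1.1, with mm10, in the processing notes. All gene identifiers were found in GENCODE vM21. The design text states 15603 cells after its filter, whereas the same filter left 32133 here, and no map from barcodes to samples was used, so the matrix was treated as 4 libraries of unknown treatment with no treatment comparison. No column of per-sample values was left unmapped.

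Barcodes were kept with at least 300 genes and at most 15% mitochondrial UMIs. A cell was given the class of the marker list (8 genes) with most detected markers, if at least 3 were detected and 2 more than in any other list. Sums of under 50 cells were left out, no doublets were called, and cells of very high UMIs were left out as an alternative. CPM was computed on the summed cells (scale 1000000), with exact Poisson 95% intervals, and shares have exact (Clopper-Pearson) 95% intervals. These cover counting error only. For shares at equal depth each cell was thinned to 1000 UMIs without replacement (seed 42), leaving out shallower cells. Joint detection of a pair was counted in classes with at least 200 thinned cells and compared with the product of the separate shares. In the background, a gene needed 100 UMIs over the sums compared. Sums were tested on simulated counts: for neutrophil-like cells of libraries 2 and 4, all of the genes changed 4-fold among 4599 were recovered at a 2-fold cut (100%). The simulated noise was small against a 4-fold change, so this checks the arithmetic only. Genes changed 2-fold were simulated too, but the share of them recovered was not computed. Thinning was run on deposited cells, not on simulated ones. Python 3.11.15, numpy 2.4.6, scipy 1.17.1, pandas 2.3.3 and matplotlib 3.10.9 were used.

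The genes, the marker lists and the other gene lists were chosen with earlier results of these data known, so nothing here is independent of those. The text names all 10 genes, the 10 others of at least 50 CPM in a sum most correlated with their mean, and genes of the fixed lists where a result turns on them. Other gate widths, the mean of single cells, thinning, stricter filters, totals without mitochondrial genes and leaving out each library were tried as alternatives. Of the genes that the rule on similar levels named, 1 is not reported here.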

Additional observations from a re-analysis of the deposited data

Results flagged for a closer look

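Cells outside the comparisons of classes also carried these RNAs. In the 8757 kept cells without a class, the 10 genes summed to 8276 CPM, with 14195 CPM in library 1 and 7802, 5339 and 6555 CPM in libraries 2 to 4. In the 931 barcodes removed for few genes or a high mitochondrial share they summed to 7555 CPM, with 9728 CPM in library 1 and 6519 to 7038 CPM in the others. Library 1 was the highest in both groups. Neither group entered the comparisons of classes, but the cells without a class are part of the share of UMIs given above for each library. The groups of 4 libraries hold unknown treatments, so no library was tested as an outlier and no difference between treatments was tested.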

How the results depend on the processing

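Of 191 values recomputed under the alternatives, 168 stayed within 1.5 times the reported count and 23 moved further. A gate that needed only 1 marker more than any other list put library 1 highest in the summed level of all 5 classes compared, against 3, since monocyte-like and neutrophil-like cells then had library 1 on top. Under the reported gate library 1 had 47 monocyte-like cells, below the minimum of 50, so it could not lead in that class. With co-detection at 2000 UMIs instead of 1000, 44 of 666 pair values reached a ratio of 1.2, against 103 of 646. The highest ratio a pair can reach falls as the shares rise with depth, so nothing is read from this difference. In cells of 2000 to 8000 UMIs, a window chosen after seeing the data, 2 classes had 50 cells in every library, library 1 was highest in 11 of 20 pairs, 27 of 50 pairs spread at least 2-fold between libraries, and 2 genes spread at least 4-fold between the 5 classes of library 2. Leaving out each library in turn, the count of genes with the same highest class ran from 3 to 6, the pairs with a 2-fold spread from 19 of 50 (without library 1) to 44 of 70 (without library 3; 33 of 50 without library 2 and 39 of 70 without library 4, against 48 of 70), the pairs highest in library 1 from 29 to 32, and the classes with their highest sum in the same library from 3 to 4. Without library 1 that library was library 4. Egr1 was highest in library 1 in 2 of 4 classes without library 2 and in 1 without library 4, against 0. Of Fos, Fosb, Jun, Jund and Atf3, Jun, Jund and Atf3 were highest in library 1 in every class compared under all alternatives that kept library 1. Fos was not with the gate of 4 markers or in cells of 2000 to 8000 UMIs, and Fosb was not with that gate, the mean of single cells, thinning to 1000 UMIs or without the deepest cells. The causes of these shifts were not tested. No paired analysis was possible because the libraries are not linked to samples or replicate numbers. Depth limits the lower levels: 49 of 270 levels had a counting half-width over 10%.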

Other observations

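Neutrophil-like cells of library 1 held opposite extremes of early genes side by side. Egr2 measured 22.1 CPM there and 75.3, 72.6 and 65.7 in libraries 2 to 4, and Nr4a2 24.6 against 129, 77.2 and 47.2, so that the 3 Nr4a and the 3 Egr genes each had their lowest level in library 1. Zfp36, which encodes a protein that destabilises cytokine RNAs, had 679 CPM against 1225, 1791 and 2503, Maff 109 against 299, 349 and 147, and Nfkbia, the inhibitor of NF-κB, 4125 against 9150, 9758.5 and 6030. In the same cells Klf2 measured 2832 CPM against 1214, 1334.5 and 1083, Klf4 153 against 53.1, 52.2 and 50.2, and Rhob 1004 against 360, 464 and 493. These genes were chosen for mention after their values were seen, and no test was made.

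In T cell-like cells the Nr4a genes divided. Nr4a2 was highest in library 1, at 354 CPM against 54.3, 60.1 and 96.8, whereas Nr4a3 had 99.3 CPM against 89.0, 164 and 106. Batf, a partner of Jun proteins in T cells, was lowest in library 1, at 62.0 CPM against 220, 265 and 142. The T cell-like cells of library 1 were mostly Cd8 cells, 230 of 352, and the part of this in these values was not tested.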
